A study of Rattus norvegicus with 40 samples.

Results

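The cytosolic ribosomal protein genes encode the protein part of the ribosome that translates nuclear-encoded mRNAs, the Rpl genes in its large subunit and the Rps genes in its small subunit. They were taken as the genes whose platform annotation symbol is Rpl or Rps with a number, together with Rpsa and Rplp0. Kinases of the Rps6k family and pseudogene symbols were left out. The rule also asks for Rplp1 and Rplp2, which had no probe set of their own symbol alone. It gave 43 of the 14217 genes measured, each represented by its brightest probe set, a probe set being a group of short oligonucleotides against a transcript. Affymetrix arrays were hybridised with total RNA of whole lung and whole intestine from Wistar rat embryos, 10 arrays for each of 4 groups: lung at gestational day 20 (E20), lung at day 16 (E16), intestine at E20 and intestine at E16. The labels name no treatment or engineered allele. The labels speak of frozen tissue from several siblings, and whether an array holds 1 embryo or several is not settled by them, so a p-value here weighs a difference only against how much these arrays vary, part of which may be technical. Age and litter cannot be told apart, and neither can organ and the amount of RNA labelled, which differed between the organs.

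A ribosome holds, with few exceptions, a single copy of each of these proteins, and their genes are among the most strongly transcribed in growing tissue. Their mRNAs begin with a run of pyrimidines at the 5′ end, the terminal oligopyrimidine tract, through which mTOR signalling and the binding protein Larp1 govern whether they are translated or stored. Much of their regulation is therefore at translation, which an array of mRNA levels does not measure. The organs are at different points of growth at these ages: the fetal lung forms its sacs and starts surfactant synthesis late in gestation, and the intestinal lining turns into villi over the same days.

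Pyrimidine runs can be looked for in the genome at the annotated start of transcription. A run was followed from the start in both directions, so its length includes bases before the start. It is therefore not the length of the tract in the mRNA. RefSeq promoter sequence of the GRCr8 assembly was matched for 36 of the 43 genes, as a window of 250 bases before and 50 bases from the start. A run of at least 6 pyrimidines covered the start in 17 of the 36 (47.2%), against 7.13% of 18999 protein-coding promoters of the same length. The sequences that follow show 120 bases before and 30 from the start of a pair of genes that were higher in E20 intestine, Rplp0 and Rpl12, and of a pair that were lower there, Rpl35 and Rpl14. Capitals mark the pyrimidine run over the start, which was 8 bases in Rplp0, 7 in Rpl12, 18 in Rpl35 and 14 in Rpl14.
Rplp0: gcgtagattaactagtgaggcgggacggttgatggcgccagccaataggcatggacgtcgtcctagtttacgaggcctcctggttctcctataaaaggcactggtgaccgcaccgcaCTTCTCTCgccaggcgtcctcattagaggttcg
Rpl12: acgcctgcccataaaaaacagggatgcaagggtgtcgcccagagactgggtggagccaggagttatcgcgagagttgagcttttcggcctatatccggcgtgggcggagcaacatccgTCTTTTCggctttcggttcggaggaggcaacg
Rpl35: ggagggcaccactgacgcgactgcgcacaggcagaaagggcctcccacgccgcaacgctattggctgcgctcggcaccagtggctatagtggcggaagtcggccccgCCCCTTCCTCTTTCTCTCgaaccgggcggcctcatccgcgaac
Rpl14: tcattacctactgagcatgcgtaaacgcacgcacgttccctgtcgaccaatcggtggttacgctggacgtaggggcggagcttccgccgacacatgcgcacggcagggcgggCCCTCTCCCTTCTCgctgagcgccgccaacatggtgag
They lie at chr12:46718361-46718510 (minus strand), chr3:36661820-36661969 (plus strand), chr3:43165892-43166041 (minus strand) and chr8:129163500-129163649 (plus strand). These 4 genes, which moved in opposite directions with age, all start in such a run. Not every gene of either direction did. Among genes higher in E20 intestine, the run was 0 bases in Rpl13a and Rpl7a and 4 in Rpsa. Among those lower there, it was 0 in Rpl24 and Rpl11. Searched on both strands over the whole window, GGGCGG, the core bound by Sp1, was found in 24 of the 36 (66.7%), against 43.1% of all promoters. CCGGAAG, an ETS family core, was found in 8 (22.2%), against 11.2%, and AAGATGGC, the YY1 core, in 4 (11.1%), against 3.92%. These matches describe the letters of the windows and were not tested as sites.

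The organs were recognisable by their markers. The summed level of 5 lung epithelium genes, the transcription factor Nkx2-1 and 4 surfactant proteins, was 15.70 to 16.01 on the log2 scale in E20 lung and 11.26 to 12.33 in E16 lung, against 8.87 to 9.14 in E20 intestine and 8.85 to 9.29 in E16 intestine. The sum of 6 intestinal epithelium genes was 9.04 to 9.47 in E20 lung and 9.32 to 9.61 in E16 lung, against 14.97 to 15.57 in E20 intestine and 9.79 to 11.13 in E16 intestine. Genes chosen as markers of other tissues gave signal too. Whether it came from those tissues or from cells of the organs was not tested. The 8 liver genes summed to 9.95 to 13.34 in E20 lung, 10.72 to 12.73 in E16 lung, 13.02 to 14.03 in E20 intestine and 10.38 to 13.87 in E16 intestine. The 10 measured red cell genes summed to 13.05 to 14.27 in E20 lung, against 15.50 to 15.96 in E16 lung. In E20 intestine they summed to 11.56 to 12.68, against 15.82 to 16.56 in E16 intestine. Of the 10, 9 were called lower at E20 in each organ, beside 33.7% of all genes in lung and 41.9% in intestine. The part of these liver and red cell transcripts in the changes of ribosomal protein genes was not tested. In tissue samples, fewer cells of a type and less RNA per cell cannot be told apart. A set of 7 arrays (lung E20 replicates 1, 6 and 8, intestine E20 replicate 9, and intestine E16 replicates 6, 8 and 9) hold more liver, pancreas or mesothelium transcripts, as found in an earlier reading of these data, and the counts of the comparisons are also given without them where that changes them.

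Most ribosomal protein probe sets lay near the top of the scale. Of the 43, 38 had a mean above 12.77, the 99th percentile of all gene means. Their means ran between 13.38 for Rpl14 and 14.74 for Rps29, a small zinc-binding protein of the small-subunit head, and only 3 genes on the array had a higher mean than Rps29. The highest value of any probe set on an array was 15.11 to 15.28, and the highest single value of these 38 was 14.99. The scale has little room above them, and differences close to its top can be compressed by saturation, which was not tested. These 38 are called the bright genes here. The remaining 5 probe sets were dim, with means of 9.86 for Rps4y2, a copy of the gene of the small-subunit protein S4, and down to 6.78 for Rpl30, with Rpl28, Rpl39 and Rps13 between them. Brightness depends on each probe set's oligonucleotides, so these levels do not rank the genes by abundance.

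**Figure D1:**
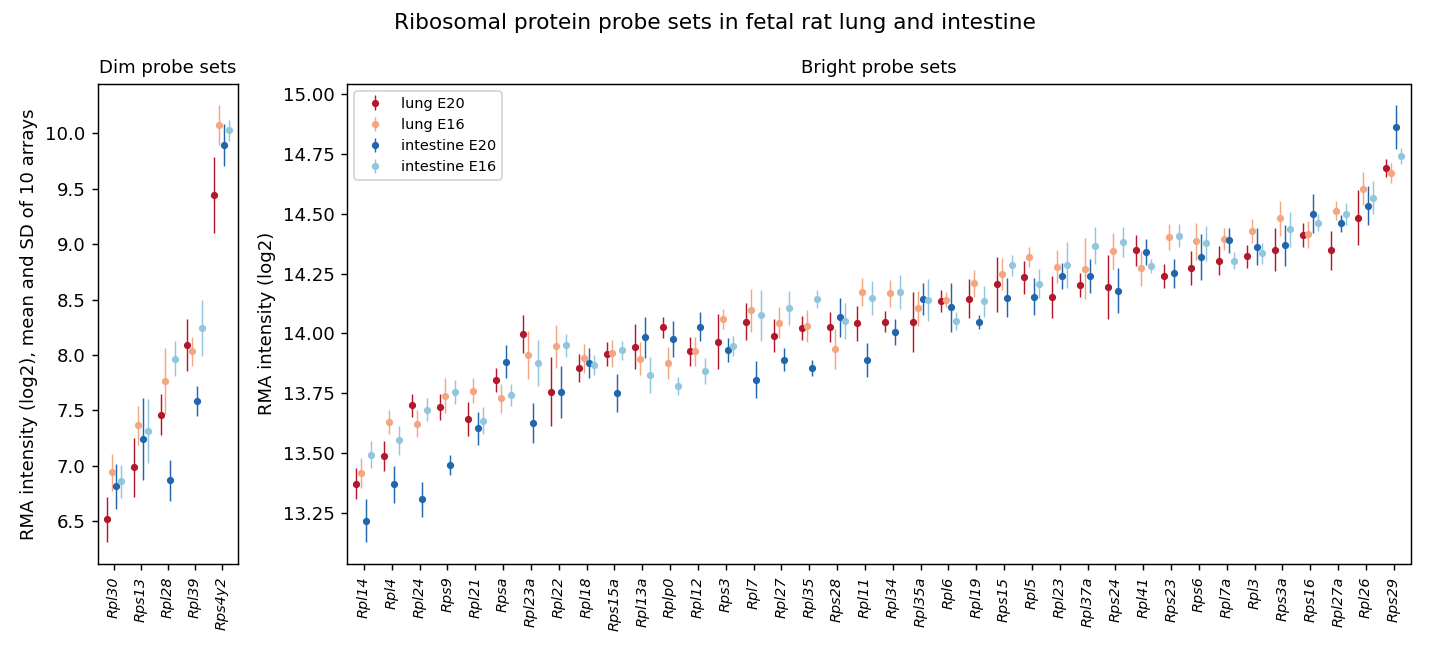
Level of each ribosomal protein gene (log2 intensity; mean as a point, SD of 10 arrays as a bar) in lung E20, lung E16, intestine E20 and intestine E16, in order of mean, with the 5 dim probe sets on the left on their own scale. All 38 bright genes have their 4 group means within 0.39 of each other, with E20 intestine lowest for Rpl24, Rps9 and Rpl23a.

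The bright genes differed little between organs and ages. Between the lowest and the highest of the 4 group means lay a median of 0.16 on the log2 scale, at most 0.39 (Rpl24) and at least 0.038 (Rpl18), and all 38 ranges were under 0.5. Of the 27 other genes whose mean over all arrays was at least that of the dimmest bright gene, 14 had a range under 0.5 and 4 a range of at least 1, with a median of 0.47 and a largest of 1.77. This sets the ribosomal protein genes beside others of like brightness and does not show how far saturation narrows either group. Arrays of a group varied little as well: the median within-group SD was 0.063 for the bright genes, against 0.11 for those 27 genes, 0.17 for all genes and 0.21 for the 5 dim ones.

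**Figure D2:**
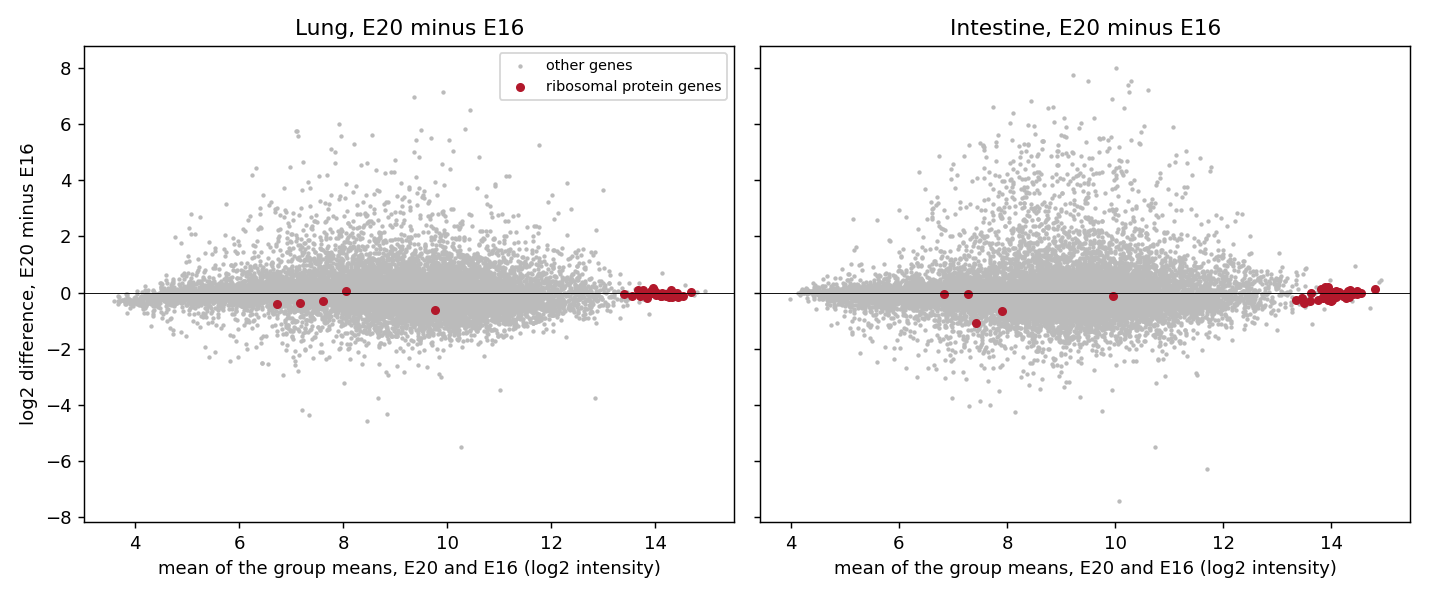
Log2 difference E20 minus E16 (vertical axis) against the mean level of the E20 and E16 groups (horizontal axis, log2 intensity), in lung on the left and intestine on the right, for ribosomal protein genes in red and all other genes in grey. The red points form a narrow band at the right end of each panel, apart from the 5 dim probe sets.

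The first comparison asks how the genes changed with age in the lung. Expression was tested with limma over all genes, and a gene was called where its Benjamini-Hochberg adjusted p was under 0.05. In E20 lung 5 of the 43 genes were higher and 20 lower than in E16 lung, with 18 not called. Of all genes 66.7% were called, 33.0% higher and 33.7% lower, so the share of ribosomal protein genes called, 58.1%, was near that of the array. None changed by 2-fold, which 11.8% of all genes did. The median change was -0.06, against -0.01 for all genes. A single gene, Rps23, had no overlap between the arrays of the 2 ages, whereas 31.1% of all genes had none.

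Among the genes that were lower in E20 lung, the 4 largest changes were those of dim probe sets. Rps4y2 had a lowest, median and highest level of 8.97, 9.28 and 9.97 in E20 lung, against 9.85, 10.06 and 10.39 in E16 lung. The ages overlapped slightly, and the level was 1.55-fold lower in E20 lung (log2 change -0.63 ± 0.10 SE, limma adjusted p = 2.55e-07). Rpl30, a large-subunit protein, changed by -0.42, Rps13 by -0.38 and Rpl28 by -0.30. Their E20 arrays reached into the range of the E16 arrays in each case.

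The bright genes that fell in the lung did so by less than 0.2. Rpl27a, a large-subunit protein, had 14.26, 14.32 and 14.48 in E20 lung (lowest, median, highest), against 14.45, 14.51 and 14.59 in E16 lung. Most E20 arrays lay under the E16 range (change -0.17 ± 0.03 SE, limma adjusted p = 1.77e-05). Rps23, a protein of the decoding centre of the small subunit, reached at most 14.33 in E20 lung and at least 14.35 in E16 lung, a change of -0.16. Rpl22, an RNA-binding large-subunit protein, changed by -0.19 and Rps24 by -0.15. Rpl21 changed by -0.12, Rpl26, which also binds the p53 mRNA, by -0.12, and Rps3, which also acts in DNA repair, by -0.10. Rpl5 changed by -0.08. Rpl5 and Rpl11, which changed by -0.13, form with 5S rRNA the particle that can bind Mdm2.

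The 5 genes called higher in E20 lung rose by 0.15 or less. Rplp0, the base of the P stalk to which elongation factors dock, had 13.96, 14.03 and 14.10 in E20 lung, against 13.74, 13.87 and 13.98 in E16 lung. The ages overlapped only at their edges (0.15 ± 0.03 SE, limma adjusted p = 0.000176). Rps28 differed by 0.09, Rpl24 by 0.08, Rpsa, which is also known as the laminin receptor precursor, by 0.08, and Rpl41 by 0.07. These calls depended on how arrays were scaled. With each array centred on its median 0 of the 43 genes were called higher by limma, also 0 at an unadjusted p under 0.05. In that scaling 30 were lower, and Rpl24 and Rpsa changed sign to -0.0032 and -0.0043. Centring moved the all-gene median to -0.09 and that of the 43 genes to -0.14. The share of all genes called with centring was not counted in any comparison. Leaving out the 7 arrays rich in marker transcripts of other tissues, 1 was higher, Rplp0 at 0.17, and 23 were lower. The deposited scale, median centring and quantile normalization gave the same call of lower for 18 of the 43 and of higher for none.

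**Figure D3:**
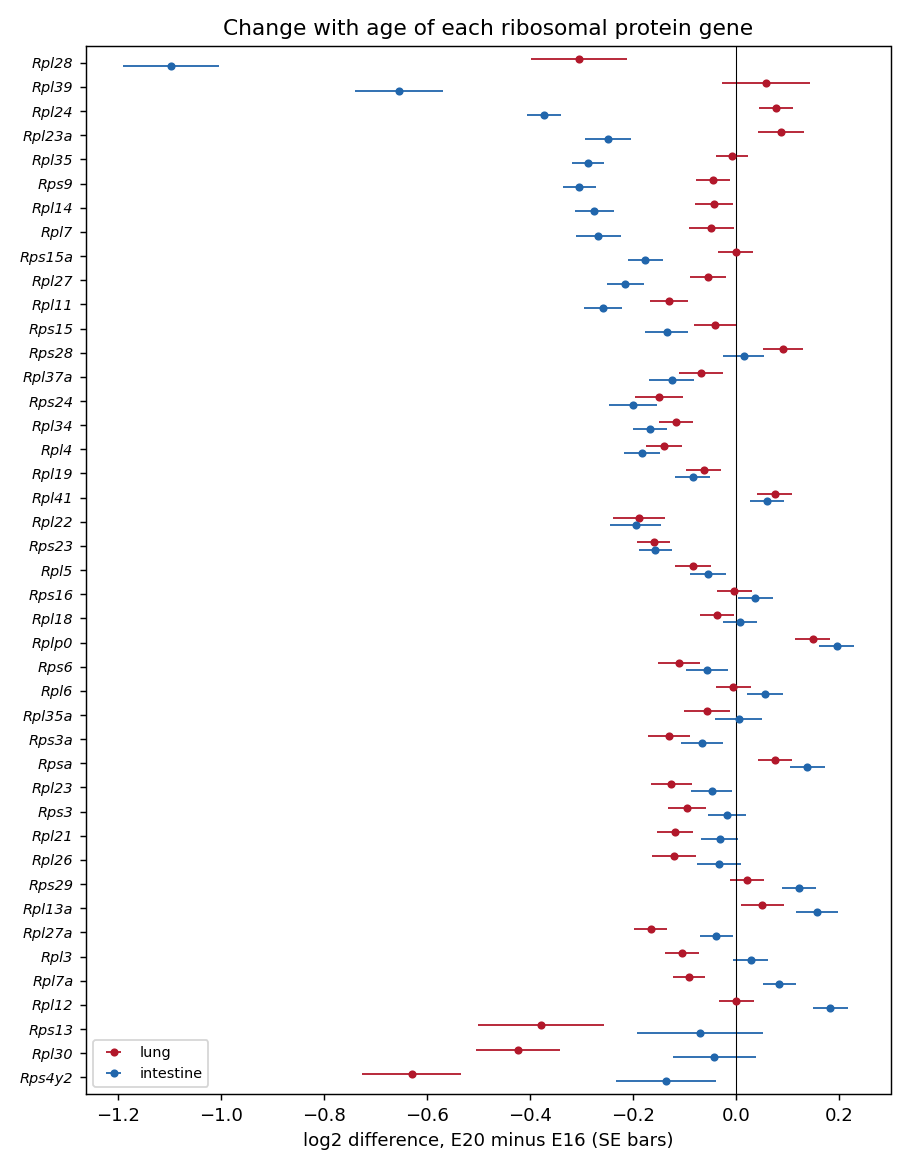
Log2 difference E20 minus E16 of the 43 ribosomal protein genes in lung (red) and intestine (blue), with limma standard errors as bars, ordered from the most positive to the most negative difference between the organs. Rpl28, Rpl39 and Rpl24 lie at the top, with lower values in intestine, and Rps4y2 lies at the bottom with a lower value in lung.

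The second comparison concerns age in the intestine. In E20 intestine 6 genes were higher and 19 lower than in E16 intestine, and 18 were not called. Of all genes 71.5% were called, 29.5% higher and 41.9% lower, again with 58.1% of the ribosomal protein genes called. The median was -0.07, against -0.09 for all genes. The arrays of the ages did not overlap in 9 genes, all lower at E20, compared with 37.6% of all genes that had no overlap. A 2-fold change was reached by 1 gene, Rpl28, and by 15.1% of all genes. The call of all but 8 genes was the same in all 3 scalings described above, with 5 genes higher and 16 lower in each.

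The genes higher in E20 intestine under all 3 scalings were Rplp0, Rpl12, Rpl13a, Rpsa and Rpl7a. Rplp0 had 13.83, 14.00 and 14.08 in E20 intestine, against 13.71, 13.79 and 13.83 in E16 intestine. The lowest E20 array lay just under the highest E16 array and the others lay above it (0.19 ± 0.03 SE, limma adjusted p = 2.33e-06). Rpl12, which sits at the base of the same stalk, had 13.91, 14.03 and 14.11 in E20 intestine, against 13.76, 13.84 and 13.95 in E16 intestine, with overlap of a few arrays (0.18, limma adjusted p = 8.02e-06). Rpl13a, a large-subunit protein with a further role in silencing inflammatory mRNAs, differed by 0.16 and Rpsa by 0.14. Rpsa had 3 probe sets, and all 3 were higher in E20 intestine, by 0.14, 0.18 and 0.25. In the lung only the brightest of them was called, at 0.08, and the others were 0.03 and 0.05. Rpl7a was higher by 0.08.

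Rps29 was higher by 0.12 in E20 intestine on the deposited scale, but not called after quantile normalization, at 0.01. It had 14.69, 14.86 and 14.99 in E20 intestine, against 14.70, 14.73 and 14.80 in E16 intestine. Its lowest E20 array lay just under the lowest E16 array, its highest above the highest, and it is the brightest gene of the set.

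Rpl24, Rps9 and Rpl35 had the largest falls of bright genes in the intestine. Rpl24, a late-joining large-subunit protein that takes part in a bridge to the small subunit, had 13.16, 13.32 and 13.41 in E20 intestine, against 13.60, 13.68 and 13.75 in E16 intestine. The ages were fully apart, and the level was 1.30-fold lower at E20 (-0.37 ± 0.03 SE, limma adjusted p = 4.00e-13). Rps9, which lies near the mRNA entry of the small subunit, had 13.40, 13.44 and 13.52 in E20 intestine, against 13.71, 13.75 and 13.84 in E16 intestine (-0.30, limma adjusted p = 6.40e-11). Rpl35, a protein at the exit of the nascent chain tunnel, had 13.81, 13.86 and 13.91 in E20 intestine, against 14.08, 14.14 and 14.19 in E16 intestine (-0.29, limma adjusted p = 5.32e-11). In both, every E20 array lay under every E16 array. Rpl14 changed by -0.28, Rpl7 by -0.27, Rpl11 by -0.26 and Rpl23a, which with Rpl35 borders the tunnel exit, by -0.25. Rpl14 and Rpl7 each have a dimmer probe set, with means of 7.13 and 8.72. These changed by -0.09 and 0.10 in intestine, neither called.

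**Figure D4:**
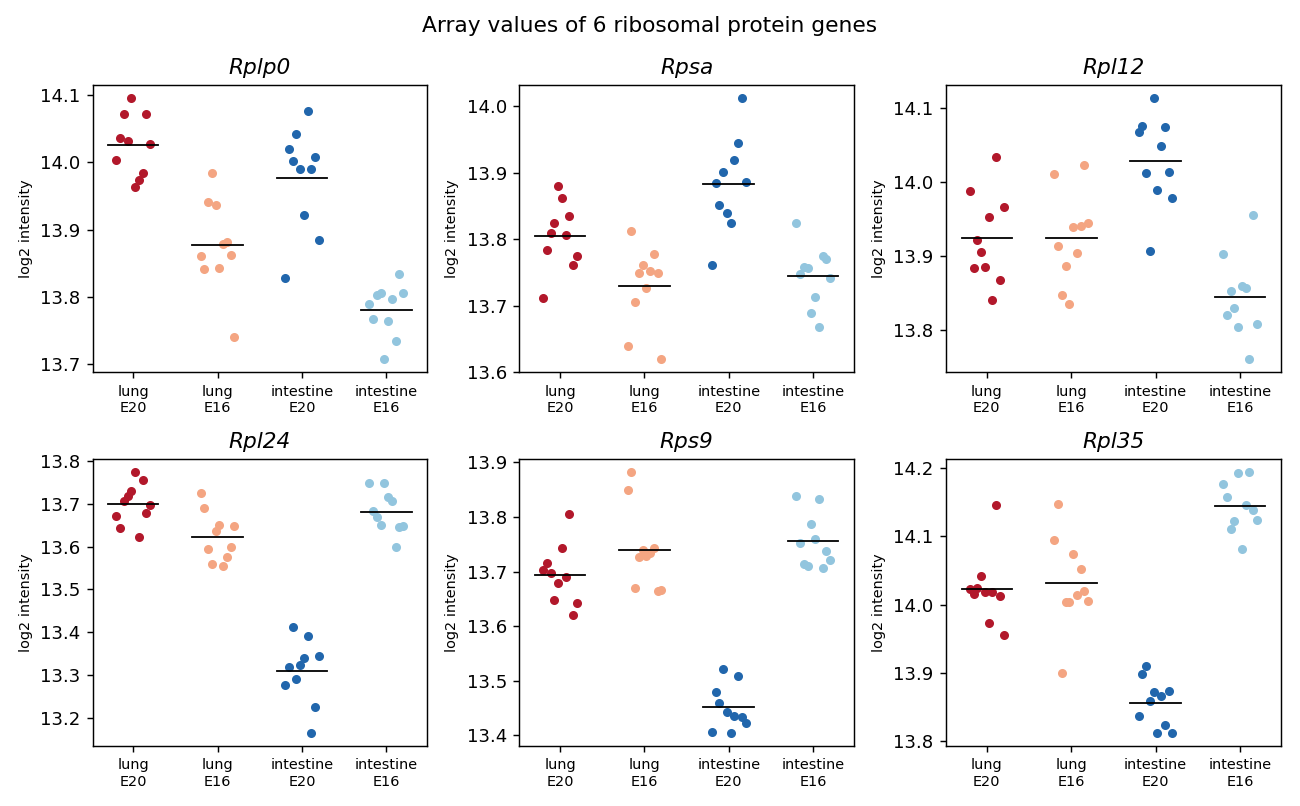
Level on every array (log2 intensity, a point per array, the group mean as a line) of Rplp0, Rpsa, Rpl12, Rpl24, Rps9 and Rpl35 in lung E20, lung E16, intestine E20 and intestine E16. The vertical axes do not start at 0 and span under 1 log2 unit; the E20 intestine arrays of Rpl24, Rps9 and Rpl35 lie below all E20 lung and E16 intestine arrays.

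The single probe set that changed by 2-fold was the dim one of Rpl28, with 6.62, 6.84 and 7.20 in E20 intestine, against 7.72, 8.01 and 8.16 in E16 intestine (-1.10 ± 0.09 SE, limma adjusted p = 7.60e-14). Another probe set, annotated to Rpl28 and 2 further symbols and therefore no member, was bright, with a mean of 14.01, and its change was 0.09 in the lung and 0.03 in the intestine. The dim probe set of Rpl39, a very short protein of the tunnel, changed by -0.66 in the intestine. For Rps13 the dim set gave -0.38 in the lung and -0.07 in the intestine, whereas a bright set shared with its pseudogenes gave -0.06 and -0.07. For Rpl30 the dim set gave -0.42 in the lung, and 2 bright sets shared with other symbols gave -0.05 and 0.05. In the intestine the dim set gave -0.04 and the bright ones -0.25 and 0.06, so that lung change minus intestine change was -0.38 in the dim set and 0.20 and -0.01 in the bright ones. The dim sets of Rpl28, Rps13 and Rpl30 thus gave larger lung falls than the bright sets that also carry those symbols.

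The age changes of the organs were then set against each other. Of the 43 genes, 2 (Rplp0 and Rpsa) were called higher in both organs and 7 (Rpl11, Rpl22, Rpl28, Rpl34, Rpl4, Rps23 and Rps24) lower in both. These are 4.65% and 16.3% of the members, beside 15.2% and 20.1% of all genes. Rpl24 was higher in E20 lung and lower in E20 intestine, and Rpl7a lower in E20 lung and higher in E20 intestine. A further 4 (Rpl18, Rpl35a, Rpl6 and Rps16), or 9.30%, were called in neither, beside 12.8% of all genes. The 7 genes lower in both organs were so in all 3 scalings. For Rpl28 this rests on its dim probe set, and the bright set that also carries its symbol changed by 0.09 in lung and 0.03 in intestine. The lung calls of Rplp0, Rpsa and Rpl24 as higher were lost on centring, and those of Rpsa and Rpl24 also after quantile normalization. The other probe sets of Rpsa were not called in lung. In them, lung change minus intestine change was called negative, at -0.16 and -0.20, against -0.06, not called, in the set used. The lung call of Rpl7a was lost after quantile normalization. The difference itself, lung change minus intestine change, was called positive in 11 genes, negative in 6 and not called in 26. Of all genes 66.2% were called, 35.3% positive and 30.9% negative, beside 39.5% of the ribosomal protein genes. The median difference was -0.03, against 0.03 for all genes, and no member reached 2-fold, which 17.6% of all genes did.

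Median centring shifted the all-gene median of this difference to -0.10, and then 6 ribosomal protein genes were positive and 24 negative. Relative to the all-gene median the members' median was -0.06 on the deposited scale, which centring cannot change, and 0.01 after quantile normalization, so its sign depends on the scaling. The difference was positive in 6 genes in all 3 scalings, namely Rpl28 (0.79), Rpl39 (0.71), Rpl24 (0.45 ± 0.05 SE, limma adjusted p = 5.21e-11), Rpl23a (0.34), Rpl35 (0.28) and Rps9 (0.26). All 6 were lower in E20 than in E16 intestine. Rpl28 and Rpl39 were measured by dim probe sets, and the bright set that also carries the Rpl28 symbol gave a difference of 0.06. In the lung, Rpl35 changed by -0.01, Rps9 by -0.05 and Rpl39 by 0.06 on the deposited scale, where none of these was called. With median centring, Rps9 (-0.13, limma adjusted p = 0.0034) and Rpl35 (-0.09, limma adjusted p = 0.023) were called lower in E20 lung. In another 6 it was negative in all 3 scalings: Rps4y2 (-0.49), Rpl30 (-0.38), Rpl12 (-0.18), Rpl7a (-0.18), Rpl3 (-0.13) and Rpl27a (-0.13). Leaving out the 7 arrays rich in marker transcripts of other tissues, 10 genes were positive and 14 negative. Rpl24 was then at 0.44, Rps9 at 0.24 and Rpl35 at 0.27.

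Lung was then compared with intestine at each age, with the same groups as in the age comparisons. At E20, 14 genes were higher in lung, 8 lower and 21 not called, against 30.6% of all genes higher, 42.5% lower and 73.1% called in either direction. The median was 0.01, against -0.09 for all genes, and no member reached 2-fold, against 16.1% of all genes. In 5 genes the level was higher in every lung array than in any intestine array: Rpl24 by 0.39, Rps9 by 0.24, Rpl35 by 0.17, Rpl23a by 0.37 and Rps15a by 0.16. Of all genes 34.1% showed no overlap. Of the 8 that were lower in E20 lung, Rps4y2 (-0.45) and Rpl27a (-0.11) were so in all 3 scalings, and Rps29 (-0.17) was not called after quantile normalization. The dim probe sets of Rpl28 and Rpl39 were higher in E20 lung by 0.59 and 0.51, and that of Rpl30 was lower (-0.30), a difference not called after quantile normalization.

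Fewer genes were called between the organs at E16. In E16 lung 8 genes were higher, 3 lower and 32 not called, against 23.8% of all genes higher, 40.2% lower and 64.1% called. No ribosomal protein gene reached 2-fold, against 5.13% of all genes. No member separated the arrays of the organs, as 19.3% of all genes did. The largest positive differences were Rpl21 at 0.13 (limma adjusted p = 0.00218), Rps3 at 0.11, Rpl5 at 0.11 and Rplp0 at 0.10, all 4 higher in lung in all 3 scalings. Rps28 (-0.12), Rpl35 (-0.11) and Rpl39 (-0.21) were lower in E16 lung on the deposited scale. Rpl39 was not called on centring (-0.06) or after quantile normalization (-0.08), and no member was lower in all 3 scalings. Centring moved the all-gene median to 0.04, against -0.11 on the deposited scale, and turned Rpl35 to 0.0392 and Rps28 to 0.0347. It made 33 of the 43 higher in lung and 0 lower by limma, also 0 at an unadjusted p under 0.05, so the number of E16 calls rests on the scaling. Relative to the all-gene median the members' median was 0.12 on the deposited scale, which centring cannot change, and 0.01 after quantile normalization.

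Both subunits held genes of both directions. Of 26 bright large-subunit genes 3 were higher and 11 lower in E20 lung and 4 higher and 12 lower in E20 intestine. Of 12 bright small-subunit genes 2 were higher and 5 lower in E20 lung, and 2 higher and 5 lower in E20 intestine. Of all genes 33.0% were higher and 33.7% lower in E20 lung, and 29.5% higher and 41.9% lower in E20 intestine. The large-subunit median was -0.06 in lung and -0.05 in intestine, and the small-subunit median -0.04 in lung and -0.06 in intestine.

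Over the bright genes as a set, arrays of a group lay close together. The median level over the 38 genes was 14.01 to 14.14 in E20 lung arrays, against 14.06 to 14.18 in E16 lung arrays, and 14.01 to 14.08 in E20 intestine arrays, against 14.05 to 14.20 in E16 intestine arrays. The ages overlapped in both organs. Within E20 lung the 3 highest arrays on the deposited scale, replicates 8, 6 and 1, had 14.14, 14.11 and 14.11. They were those that also hold more liver or mesothelium transcripts. Taken relative to each array's own median, the order changed. Replicate 8 was still highest (6.29), but replicate 3 (6.25) lay above replicate 6 (6.24), and replicate 10 (6.19) above replicate 1 (6.16). The part of the liver or mesothelium transcripts in the level was not tested.

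A further 33 probe sets carry several symbols of which at least 1 meets the rule, usually with a pseudogene or a near-identical copy, so that their signal cannot be given to a single gene. Of these, 30 were bright. In E20 lung 1 of the bright ones was higher and 9 lower, against 33.0% higher and 33.7% lower of all genes. In E20 intestine 2 were higher and 18 lower, against 29.5% higher and 41.9% lower of all genes. Their median was -0.06 in lung and -0.11 in intestine, against -0.01 and -0.09 for all genes. Rplp1, an acidic protein of the P stalk, was measured only in such a set, whose change was -0.01 in lung and 0.14 in intestine.

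Paralogs and ribosomal proteins outside the naming rule were measured in a few cases. Rack1, a scaffold protein of the small subunit, changed by 0.04 in lung and 0.06 in intestine, neither called. Rpl7l1, a paralog of Rpl7 found in assembling ribosomes, was lower in E20 lung (-0.46) and in E20 intestine (-0.49). Rpl3l, whose protein replaces Rpl3 in adult muscle, was dim and lower in both organs at E20 (-0.18 in lung and -0.39 in intestine). Rps27l, a p53-responsive paralog of Rps27, was lower in E20 lung (-0.45) and changed by -0.06, not called, in intestine. Rpl26l1 changed by 0.01 and -0.16 in lung and intestine, neither called.

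The lists of genes that make or serve the ribosome had larger median changes in the lung than its proteins. The lists were not tested against each other. The counts of this and the following lists stand beside those of all genes. Of all genes 33.0% were higher and 33.7% lower in E20 lung, and 11.8% were called with a 2-fold change there. In E20 intestine 29.5% of all genes were higher and 41.9% lower. Of the 43 ribosomal protein probe sets, 38 lie near the top of the scale, where differences can be compressed. The 5 dim ones had a median change of -0.38 in lung. Of 46 genes of ribosome assembly and rRNA synthesis, 42 were lower and 1 higher in E20 lung, with a median of -0.76, and 13 changed by 2-fold. In E20 intestine 36 were lower and 10 not called, with a median of -0.33. The largest lung falls were those of Lyar (-1.69), a nucleolar protein of rRNA processing, and Nolc1 (-1.67), a nucleolar chaperone, and the largest intestinal falls were Rrp12 (-1.48) and Ltv1 (-0.80), both needed for small-subunit export and maturation. Polr1d, a subunit of RNA polymerases I and III, was the gene higher in E20 lung, by 0.11, and was not called in the other scalings.

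Mitochondrial ribosomal proteins, which build the separate ribosome of mitochondria, split by organ. Of 73, 66 were lower and 3 higher in E20 lung, with a median of -0.45. In E20 intestine 29 were lower and 21 higher, with a median of 0.00. These intestinal counts were near the shares of all genes, 41.9% lower and 29.5% higher. The difference between organs was called negative in 57 and positive in 7, with a median of -0.43. Of all genes 30.9% were called negative and 35.3% positive. Mrpl12, which also binds the mitochondrial RNA polymerase, changed by -1.34 in lung, and Mrpl2 by 1.25 in intestine.

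Translation factors moved in both directions. Of 29 initiation factors 20 were lower and 3 higher in E20 lung (median -0.30) and 17 lower and 6 higher in E20 intestine (median -0.16). Eif2s1, the alpha subunit of eIF2, changed by -1.01 in lung and Eif4e, the cap-binding protein, by -0.83, while Eif6, which keeps large subunits from joining small ones, was higher by 0.82 in E20 intestine. Of 9 elongation factors 5 were lower and 2 higher in E20 lung and 4 lower and 5 not called in E20 intestine. Eef2, which moves the ribosome along the mRNA, was higher by 0.34 in E20 lung, as was its inhibiting kinase Eef2k by 0.75.

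Of 15 regulators of ribosomal protein synthesis, 10 were lower and 3 higher in E20 lung (median -0.22), and 6 lower and 4 higher in E20 intestine (median -0.06). Myc, which drives ribosome production, changed by -0.70 in lung and its relative Mycn by -0.66. Larp1, the binding protein of the pyrimidine tract, was higher in E20 intestine by 0.87, and Maf1, a repressor of RNA polymerase III, was higher in E20 lung by 0.37.

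Replication genes were lower in lung as a group. All 22 measured DNA replication and proliferation genes were lower in E20 lung, with a median of -1.20, and 18 were lower and 1 higher in E20 intestine, with a median of -0.50. Orc1, a subunit of the origin recognition complex, changed by -2.45 in lung, and Gins1, part of the replicative helicase, by -1.11 in intestine. The proliferation marker Mki67 was the gene higher in E20 intestine, by 0.29. The 6 measured genes often used as expression references had a median of -0.15 in lung and 0.18 in intestine, with 2 higher and 3 lower in E20 lung and 3 higher and 2 lower in E20 intestine. On each array, levels are relative to the rest of its RNA, so a change shared by all transcripts would not show.

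**Figure D5:**
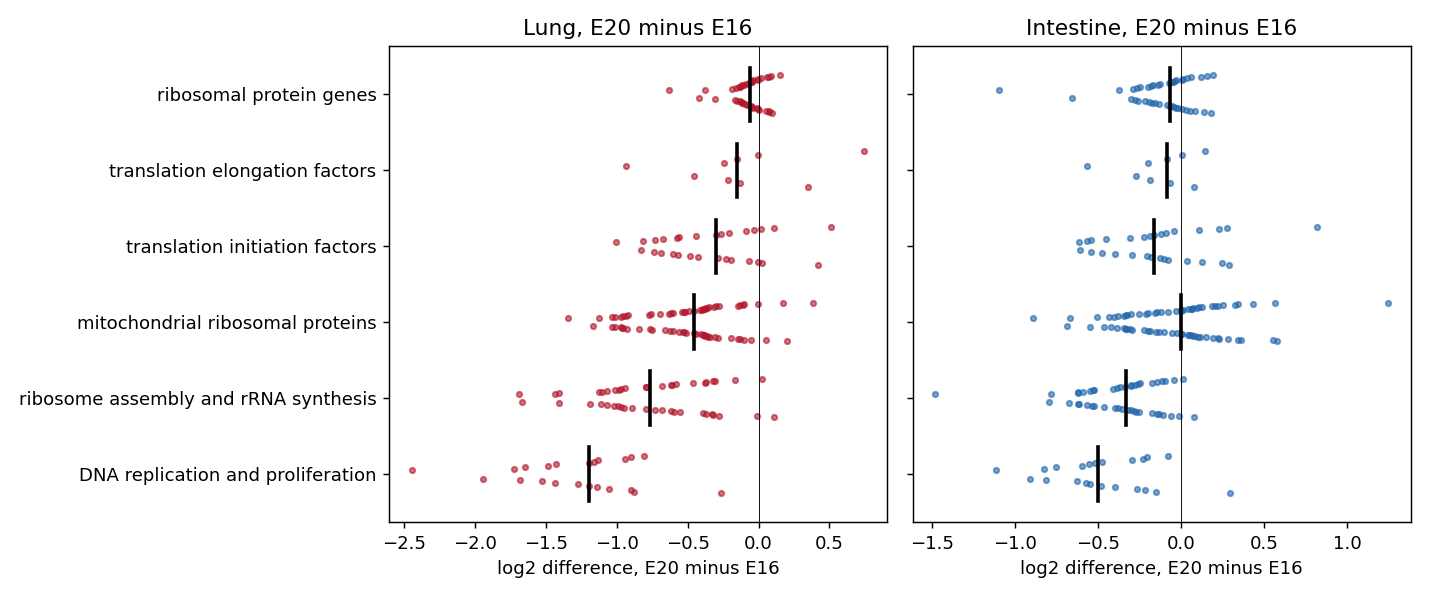
Log2 difference E20 minus E16 of each gene (a point; points are spread vertically only to separate them) of the ribosomal protein genes and of 5 lists of genes, in lung on the left and intestine on the right, with the median of each list as a black bar. In lung the bars lie at -0.06 for ribosomal protein genes, -0.76 for ribosome assembly and -1.20 for replication genes.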

How the data were processed

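The authors deposited 1 table of normalized intensities on a linear scale for 40 arrays. The submitters' processing notes name RMA, a method of background correction, normalization and probe summary. Its version, and whether lung and intestine arrays were normalized jointly, are not given in the sources used here. Log2 was taken here. Of 31099 probe sets, 20826 had 1 symbol in the platform annotation, 436 several and 9831 none, and 57 were controls. The brightest probe set by mean stood for each gene. A model with a mean per group over all 40 arrays was fitted with limma 3.58.1 in R 4.3.3, and two-sided p-values were adjusted by Benjamini-Hochberg over 14217 genes in each of 5 contrasts. The fit was tested on simulated data. Arrays have no sequencing depth, and their number limits the precision.

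Members and gene lists were chosen with earlier results of these data known. The named members are the 4 called genes with the largest rise and fall in each age contrast, the 3 with the largest in the other contrasts, the 3 brightest and 3 dimmest, and Rplp0, Rplp1, Rplp2 and Rpsa. Of other lists at most 2 genes with the largest rise and fall are named. Other genes named in the text were chosen after their values were seen. Alternatives tried were 2 scalings, other probe set rules, arrays left out, filters, the replicate number as a block, a variance trend and a fold threshold; 1, adding probe sets of several symbols, was chosen after seeing the data. Rplp2 was not analysed here.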

Additional observations from a re-analysis of the deposited data

Results flagged for a closer look

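A single array stood apart from the other 9 of its group, by Dixon's criterion, in 2 of 80 gene and group combinations examined. Chance gives about 1 in 20. In E20 intestine, replicate 1 had a Rpl26 level of 14.75 on the log2 scale, whereas the nearest of the other arrays had 14.58 and the lowest 14.47. In E20 lung, replicate 8 had a Rpl35 level of 14.15, whereas the nearest had 14.04 and the lowest 13.96. That lung array is 1 of the 3 E20 lung arrays with more liver or mesothelium transcripts.

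The change with age differed between the organs, by limma's test of lung change minus intestine change, in 9 of the named genes. Of all genes 66.2% were called in this comparison, and 6 of the 9 were named for their size in it, so the count itself is a description. The difference was positive for Rpl28 (0.79), Rpl39 (0.71), Rpl24 (0.45), Rpl35 (0.28) and Rps9 (0.26). It was negative for Rps4y2 (-0.49), Rpl30 (-0.38), Rpl12 (-0.18) and Rpl27a (-0.13). Each of the 9 had the same call in all 3 scalings. Rpl28, Rpl39, Rps4y2 and Rpl30 were measured by dim probe sets, which the scalings do not replace. Bright sets that also carry the symbol gave a difference of 0.06 for Rpl28, and of 0.20 and -0.01 for Rpl30.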

How the results depend on the processing

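Of 816 values of named genes recomputed under the alternatives, 741 kept their direction and side of the threshold, 35 became called, 36 lost the call and 4 changed sign, all 4 on centring each array on its median: in E20 against E16 lung, Rpl24 to -0.0032 and Rpsa to -0.0043, and in lung against intestine at E16, Rpl35 to 0.0392 and Rps28 to 0.0347. Counts of members moved more. For age in lung (5 higher and 20 lower), centring gave 0 higher and quantile normalization 3. Leaving out the 7 arrays with more markers of other tissues gave 1 higher. Fitting only the arrays compared gave 1 and the replicate block 1. For lung change minus intestine change (11 and 6), centring gave 6 positive and 24 negative, and leaving out the 7 arrays 14 negative. For lung against intestine at E20 (14 and 8), centring gave 4 lower and only the arrays compared 5. At E16 (8 and 3), centring gave 33 higher and 0 lower, the mean of all probe sets 5 lower, the replicate block 5 and a variance trend 6. Adding probe sets of several symbols gave 31 lower in lung, 40 lower in intestine, 19 positive differences, and 28 higher and 15 lower at E20. Adding a fold of at least 2 left 1 gene lower in intestine and 0 in every other count. Without the bright members, where saturation is possible, 0 were higher and 4 lower in lung, 0 and 2 in intestine, 2 positive and 2 negative in the difference, 2 and 2 at E20, and 0 and 1 at E16. That drop follows from counting 5 genes in place of 43; the cause of the other shifts was not tested. Fitting only the arrays compared gives no value for the difference. Replicate numbers were not treated as pairs, since not every pair correlated above 0.1: correlations of same-numbered deviations ran between -0.25 and 0.35 in lung, -0.22 and 0.18 in intestine, -0.14 and 0.39 between organs at E20 and -0.047 and 0.70 at E16, with the best match under its own number in 1, 3, 2 and 5 of 10 cases. At E16 7 of 10 pairs were above 0.1, a hint from the data that some lung and intestine samples of a number may belong together, which the labels do not state. With the block, age in lung gave 1 higher and 19 lower, and age in intestine 5 and 19. Signal near the top of the scale limits the bright genes. The scaling decided the call of 17 of 43 genes for age in lung, 8 for age in intestine, 24 for the difference, 9 for the organs at E20 and 31 at E16.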
